A study of Mus musculus with 2 samples.

Results

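Transcripts for the nuclear-encoded subunits of respiratory complexes II to V were compared between WT and *Gde5* skKO gastrocnemius (GAS) muscle. The members were the array probes, control spots excepted, whose gene name starts with Sdha, Sdhb, Sdhc, Sdhd, Uqcr, Cyc1, Cycs, Cox4, Cox5, Cox6, Cox7, Cox8 or Atp5. That choice of names gave 64 probes for 47 of the 27555 genes on the arrays, namely 4 of complex II, 8 of complex III, cytochrome c as 1 gene, 16 of complex IV, 15 of complex V and 3 others. The 3 others are Cox7a2l, an assembly factor of respiratory supercomplexes, Dmac2l (listed as Atp5s), the coupling factor B of ATP synthase, and Emc8 (listed as Cox4nb), which belongs to a membrane protein complex of the endoplasmic reticulum and is no respiratory subunit. No member was called higher or lower in *Gde5* skKO muscle, where 1.58% of all measured genes were called higher and 1.73% lower. The mean ratio of each of the 45 measured members was within 1.5-fold of WT, as it was for 95.9% of all measured genes.

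GDE5, encoded by *Gde5* (Gpcpd1), hydrolyzes glycerophosphocholine into choline and glycerol 3-phosphate. Total RNA came from GAS muscle of male mice aged 15 weeks on a normal diet, either WT or with *Gde5* deleted in skeletal muscle. The deletion used an HSA-Cre transgene, active in skeletal muscle fibres, on a floxed exon of *Gde5*, so other cells of the muscle keep the gene. In the study's glucose and fasting experiments the controls were floxed littermates without the transgene. For the arrays the controls are named only as WT. The labels name 5 mice per genotype. The study took muscle for arrays in the fasted state and after glucose, and the labels do not tell which of these states the ratios hold for. RNA of both genotypes was hybridized together on each of 2 Agilent arrays, with WT in Cy3 and *Gde5* skKO in Cy5 on array 1 and the dyes swapped on array 2. Pooling of RNA, and whether array 2 repeats the RNA of array 1, are not stated in the labels. The thresholds used here therefore measure the spread within or between hybridizations, not between mice, and with 2 arrays the precision of each ratio is limited.

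The respiratory chain of the inner mitochondrial membrane passes electrons to oxygen and stores the energy as a proton gradient, which ATP synthase, complex V, uses to make ATP. Complex II is the succinate dehydrogenase of the citric acid cycle and feeds electrons to ubiquinone, complex III passes them from ubiquinol to cytochrome c, and complex IV, cytochrome c oxidase, passes them to oxygen. Oxidative muscle fibres hold more mitochondria than glycolytic ones, and several subunits of complex IV have a heart and muscle isoform besides a more widely expressed one.

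Nuclear genes of the chain are known targets of the factors NRF-1 and GABP, of the estrogen-related receptors and of YY1, and their promoters were searched for short letter strings of these factors. RefSeq promoters of assembly GRCm38.p6 were matched by symbol for 35 of the 47 members, and the 250 bases before the start site were read on both strands. The letters GCGCATGC, as in NRF-1 sites, were found in 6 of these 35 promoters (17.1%), those of Atp5g2, Atp5k, Atp5l, Cox6a1, Cycs and Sdhb, against 2.56% of the promoters of 27025 genes. The ETS letters CCGGAAGT, which GABP binds, were found in 3 (8.57%), those of Atp5h, Uqcr11 and Uqcrh, against 3.23%. TCAAGGTCA, as in sites of estrogen-related receptors, was found in Atp5g3 alone, against 0.422% of all genes, and AAGATGGCG, as in YY1 sites, in Atp5j alone, against 0.71%. The MEF2 string TATTTATAG was found in 0 of the 35 promoters and in 0.485% of all. A match is a description of the letters and not a measured site. The promoters of Cycs and of the liver-type subunit Cox6a1 are shown for their NRF-1 letters, in capitals, and that of the muscle isoform Cox7a1 for comparison, since it holds none. They lie at chr6:50566570-50566819 on the minus strand, chr5:115348959-115349208 on the minus strand and chr7:30183921-30184170 on the plus strand, each written 5′ to 3′ up to the base before the start site. In Cox6a1 the string occurs on both strands, and these 2 matches overlap.
Cycs: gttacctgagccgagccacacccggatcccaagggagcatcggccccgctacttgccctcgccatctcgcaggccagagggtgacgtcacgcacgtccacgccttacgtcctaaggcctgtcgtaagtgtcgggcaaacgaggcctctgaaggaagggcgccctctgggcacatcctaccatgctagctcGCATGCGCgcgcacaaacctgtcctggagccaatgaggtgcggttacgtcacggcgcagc
Cox6a1: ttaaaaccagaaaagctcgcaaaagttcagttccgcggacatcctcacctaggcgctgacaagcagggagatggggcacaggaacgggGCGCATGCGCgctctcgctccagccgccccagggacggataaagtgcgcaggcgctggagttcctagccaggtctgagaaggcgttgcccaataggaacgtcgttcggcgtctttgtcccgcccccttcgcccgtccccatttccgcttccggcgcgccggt
Cox7a1: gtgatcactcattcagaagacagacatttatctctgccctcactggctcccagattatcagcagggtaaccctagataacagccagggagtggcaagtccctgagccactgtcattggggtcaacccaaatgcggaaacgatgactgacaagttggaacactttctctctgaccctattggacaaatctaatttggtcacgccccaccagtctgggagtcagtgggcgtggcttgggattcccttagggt

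*Gde5*, listed as Prei4, checks the labels, and each of its 4 probes had ratios below 0 on both arrays. The mean log2 ratio was -2.93, -2.97 and -3.18 for 3 of them and -0.26 for the brightest. Skeletal muscle markers such as Acta1 and Ckm were measured for 9 of 10 genes, and their summed WT signal was 364791 on array 1 and 370881 on array 2.

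The brightest probe stood for a gene, and a gene was tested when, on each array, that probe exceeded background clearly in 1 channel or more, which left 13589 genes. Among the members, 45 were tested. Both genotypes gave signal well above background for all 45 on each array, and none of their spots was saturated. Cox4i2, the lung isoform of subunit 4, and Cox8c, the testis isoform of subunit 8, were not well above background in either genotype on either array. A ratio is the log2 of *Gde5* skKO over WT signal on an array, and a gene was called when the Feature Extraction p, from the error model of that software for a spot, was under 0.05 on both arrays with the same direction. By this rule 0 of 45 members were called higher, against 1.58% of all genes, and 0 were called lower, against 1.73%. On array 1 alone 0 of 45 members passed the threshold, against 12.2% of all genes, and on array 2 alone 2 passed, Cyc1 and Atp5g2, against 13.9%. The error model assigns bright spots a fixed proportional error, so that a member needed a log2 ratio of about 0.40 in either direction on an array to pass.

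The median of the 45 mean log2 ratios was 0.04, beside 0.01 over all genes, with the members between -0.18 and 0.44. The middle of the distribution was narrow, with quartiles at -0.01 and 0.10 for the members and at -0.12 and 0.15 for all genes. The members were much brighter, with a median WT signal of 29756.5 against 487.7 for all genes on array 1. On array 2 these were 31178.2 and 494.1. The values of all genes were not matched for brightness, and its part in the narrower spread and fewer calls of the members was not tested. The 95% interval of the mean ratio under the error model lay within 1.5-fold of WT in both directions for 44 of the 45 members, all except Cyc1, and for 72.2% of all genes. That of Atp5g2, from 0.01 to 0.58, reached almost to 1.5-fold. This interval covers the error of the spots and not the spread between mice. In the plot of ratios by gene, array 1 and array 2 fall on either side of 0 for many members.

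**Figure D1:**
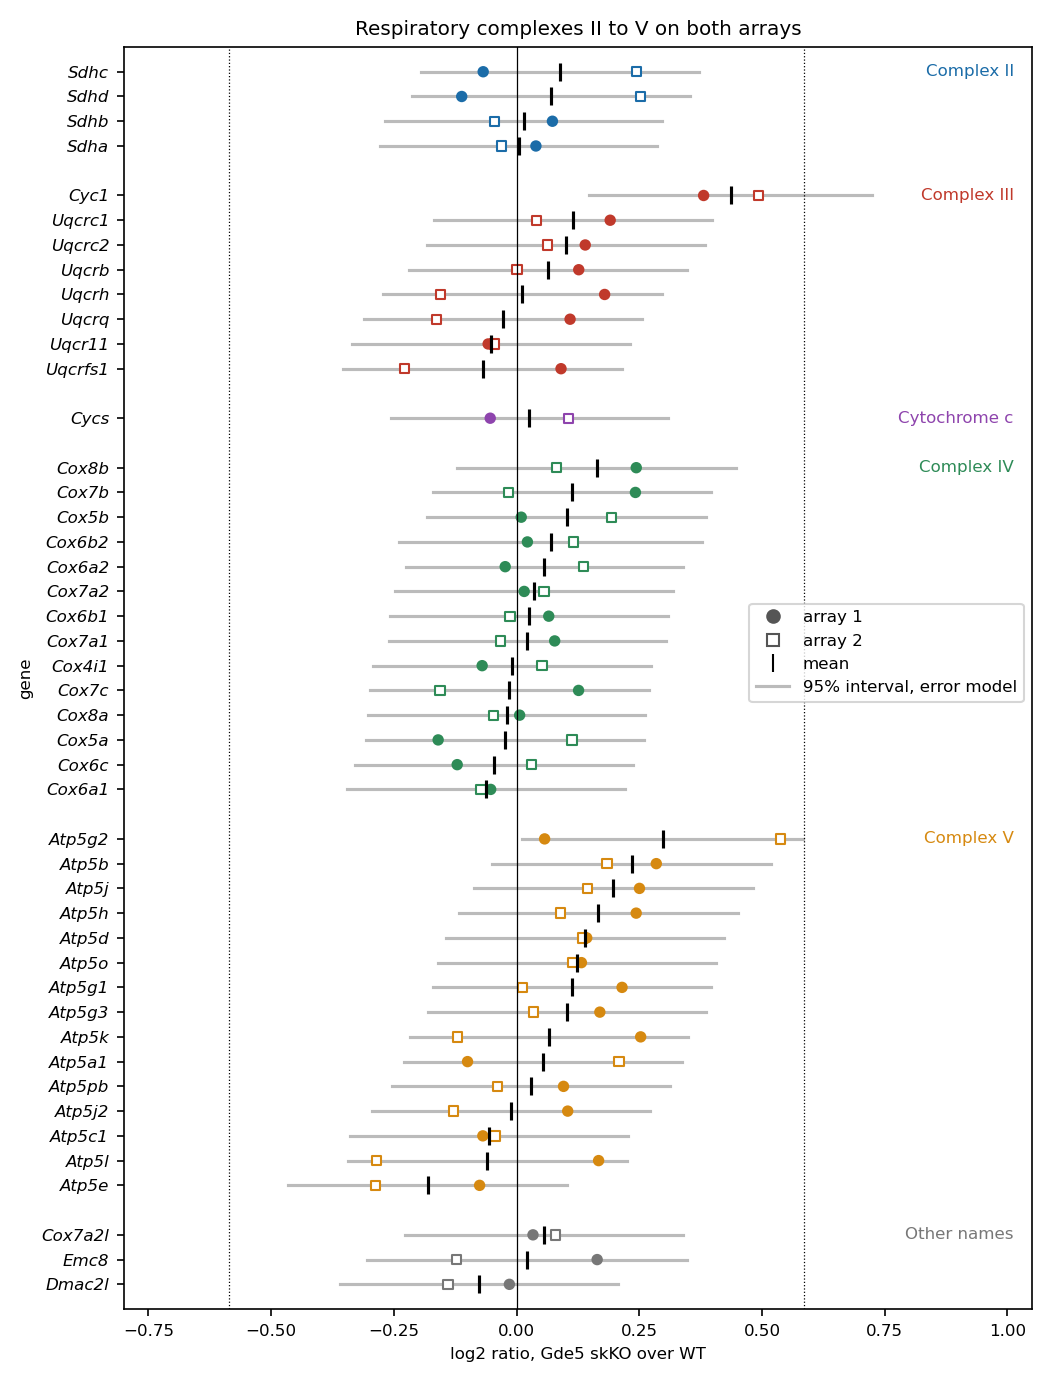
Log2 ratio of *Gde5* skKO over WT signal (x axis) for the 45 measured genes (y axis), grouped by complex and sorted by mean. Filled circles are array 1, open squares array 2, black ticks their mean, grey bars the 95% interval of the error model, and dotted lines mark 1.5-fold; 44 bars lie between the dotted lines, and that of Cyc1 extends past 1.5-fold.

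By direction, 17 of 45 members (37.8%) had a ratio above 0 on both arrays, against 29.2% of all genes, and 5 (11.1%) a ratio below 0 on both, against 25.3%. With limma's normexp and loess ratios, those below 0 on both arrays were 2 members. A further 15 members were higher on array 1 and lower on array 2, and 8 the reverse. In the members the difference between the arrays, halved, had a median size of 0.08, beside a median size of the mean ratio of 0.06. Over all genes these were 0.11 and 0.14. The halved difference was larger than the mean ratio in 51.1% of members and in 45.6% of all genes.

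**Figure D2:**
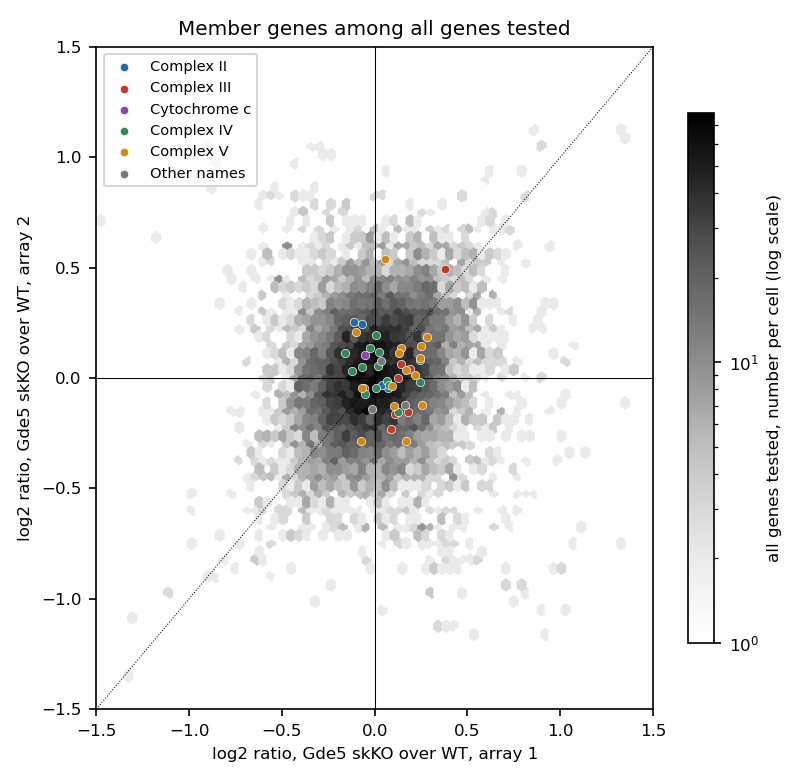
Log2 ratio of *Gde5* skKO over WT on array 1 (x axis) and array 2 (y axis). Grey cells count the 13589 genes tested (log scale; genes beyond 1.5 in either axis are not drawn), coloured points are the 45 members by complex, and the dotted line marks equal ratios; the members lie around the origin, with Cyc1 to the upper right and Atp5g2 high on array 2 alone.

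Complex II, with 4 members, showed mean log2 ratios between 0.00 and 0.09 and a median of 0.04. Sdha, the flavoprotein that oxidizes succinate, had signals of 20911 in WT and 21491 in *Gde5* skKO muscle on array 1, and of 24456 and 23934 on array 2. Its log2 ratios were 0.04 and -0.03. A second, dimmer Sdha probe had ratios of 0.22 and 0.32, so the probes of this gene differed. The iron-sulfur subunit Sdhb had ratios of 0.07 and -0.04. The membrane anchors had ratios of -0.07 and 0.24 (Sdhc) and of -0.11 and 0.25 (Sdhd). Each of the 4 genes, by its brightest probe, was higher on 1 array and lower on the other.

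Complex III held the member with the highest mean ratio of the whole set, Cyc1, cytochrome c1, the heme subunit that hands electrons to cytochrome c. Its probe lies at chr15:76172763-76172822 of the mouse assembly mm8, the build of the array annotation. The signal was 21793 in WT and 28381 in *Gde5* skKO muscle on array 1, and 22076 in WT and 31054 in *Gde5* skKO muscle on array 2. Both *Gde5* skKO signals were above both WT signals. The log2 ratios were 0.38 on array 1, which missed the threshold, and 0.49 on array 2, which passed it, so that the gene was not called. The mean of 0.44 ± 0.15 (SE of the error model) stands for 1.35-fold, with a 95% interval from 0.15 to 0.73. The moderated test of limma, fitted to ratios after normexp background correction and loess, gave a log2 fold change of 0.45 ± 0.11 (SE) with an adjusted p = 0.165 (Benjamini-Hochberg over all genes).

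The other members of complex III lay closer to 0. The core proteins Uqcrc1 (0.19 and 0.04 on the arrays) and Uqcrc2 (0.14 and 0.06) had ratios above 0 on both arrays. The small subunit Uqcrb had ratios of 0.13 and 0.00. Uqcrfs1, the Rieske iron-sulfur protein, had 0.09 and -0.23, and was with a mean of -0.07 among the 3 lowest members. The hinge protein Uqcrh (0.18 and -0.16) and the small subunit Uqcrq (0.11 and -0.16) were higher on array 1 and lower on array 2, and Uqcr11 (-0.06 and -0.05) was slightly lower on both. A dim second probe of Uqcrq had ratios of -0.61 and 0.76. It passed the threshold on both arrays in opposite directions, which is no call. The median mean ratio of the 8 genes was 0.04. Cytochrome c itself, Cycs, had signals of 24247 in WT and 23362 in *Gde5* skKO muscle on array 1 and of 22959 and 24712 on array 2, with ratios of -0.05 and 0.11. Its 3 probes had mean ratios of 0.03, 0.00 and -0.06.

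Complex IV, with 14 measured genes, held the narrowest range of the larger complexes, with means from -0.06 (Cox6a1) to 0.16 (Cox8b) and a median of 0.02. Cox4i1, the main isoform of subunit 4, had ratios of -0.07 and 0.05. Cox5a had -0.16 and 0.11, and Cox5b had 0.01 and 0.19. Cox6c (-0.12 and 0.03), Cox7b (0.24 and -0.02) and Cox7c (0.13 and -0.16) changed sign between the arrays.

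The isoform pairs of complex IV ask whether muscle isoforms and widely expressed isoforms differed in their response. Cox6a2, the heart and muscle isoform, had signals of 108352 in WT and 106634 in *Gde5* skKO muscle on array 1 and of 111589 and 122703 on array 2. Cox6a1, the liver-type isoform, had 32024 and 30876 on array 1 and 32402 and 30814 on array 2. The ratio of Cox6a2 exceeded that of Cox6a1 by 0.12, with a 95% interval from -0.28 to 0.52 under the error model. Neither isoform passed the threshold. The muscle isoform Cox7a1 had signals of 159451 in WT and 168276 in *Gde5* skKO muscle on array 1 and of 180737 and 176622 on array 2, and its ratio was 0.01 below that of Cox7a2 (-0.01, interval from -0.41 to 0.39). The muscle isoform Cox8b, with ratios of 0.24 and 0.08, exceeded Cox8a, with 0.01 and -0.05, by 0.18 (interval from -0.22 to 0.58). Cox6b1 (0.07 and -0.01) and the testis isoform Cox6b2 (0.02 and 0.12) differed by -0.04 (interval from -0.46 to 0.38). Each of these intervals includes 0 and reaches a difference of about 0.4 or more in 1 direction, so equal responses of the isoforms were not shown.

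Complex V had the highest median of the 4 complexes, 0.10 over 15 genes, with 0.14 on array 1 and 0.03 on array 2. On array 2 alone the medians of complex II, at 0.11, and complex IV, at 0.04, were higher. Here 8 of 15 genes were above 0 on both arrays and 2 were below. In the catalytic F1 part, Atp5b, the beta subunit, had signals of 29339 in WT and 35740 in *Gde5* skKO muscle on array 1 and of 32431 and 36856 on array 2. The ratios of this brightest Atp5b probe were 0.28 and 0.18, short of the threshold on both arrays. The 3 probes of Atp5b, at chr10:127493148-127493207, chr10:127488462-127488521 and within chr10:127487371-127488049 of mm8, were all above 0 on both arrays. The second, with 0.61 and 0.28, passed the threshold on array 1 alone. The third, with 0.11 and 0.43, passed it on array 2 alone. The limma log2 fold change of Atp5b was 0.27 with an adjusted p = 0.448. The alpha subunit Atp5a1 had ratios of -0.10 and 0.21, the gamma subunit Atp5c1 of -0.07 and -0.04, and the delta subunit Atp5d of 0.14 and 0.13. Atp5e, the epsilon subunit, had the lowest mean of all members, -0.18. Its signal was 104795 in WT and 99470 in *Gde5* skKO muscle on array 1 and 122941 and 100748 on array 2, below WT each time, with ratios of -0.08 and -0.29 that did not pass the threshold.

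The c ring of ATP synthase, which turns as protons pass, is built from the product of 3 genes that encode the same mature protein. Atp5g1 had ratios of 0.21 and 0.01, Atp5g3 of 0.17 and 0.03, and Atp5g2 of 0.06 and 0.54. For Atp5g2 the signal was 98744 in WT and 102739 in *Gde5* skKO muscle on array 1 and 76936 and 111698 on array 2, where it passed the threshold. The second probe of Atp5g2 had ratios of 0.03 and 0.04, so the value of array 2 was not seen there. The limma log2 fold change of Atp5g2 was 0.11 (adjusted p = 0.999). The interval for Atp5g2 minus Atp5g3, from -0.21 to 0.60, and that for Atp5g1 minus Atp5g3, from -0.39 to 0.41, both included 0. In the peripheral stalk, Atp5h (0.24 and 0.09), Atp5j (0.25 and 0.14) and Atp5o (0.13 and 0.11) had ratios above 0 on both arrays and Atp5pb (listed as Atp5f1) had 0.10 and -0.04. Of the small membrane subunits, Atp5k (0.25 and -0.12), Atp5l (0.17 and -0.29) and Atp5j2 (0.10 and -0.13) were higher on array 1 and lower on array 2. A dim second probe of Atp5j2 was not well above background in WT, with processed signals of 23.1 in WT and 55.8 in *Gde5* skKO muscle on array 1 and 33.4 and 52.4 on array 2. This probe passed the threshold on array 1 alone. After normexp with its offset, loess and Aquantile normalization of the channels, its *Gde5* skKO signal was 1.10-fold that of WT. The measured WT value entered this ratio, so it is not a lower bound.

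**Figure D3:**
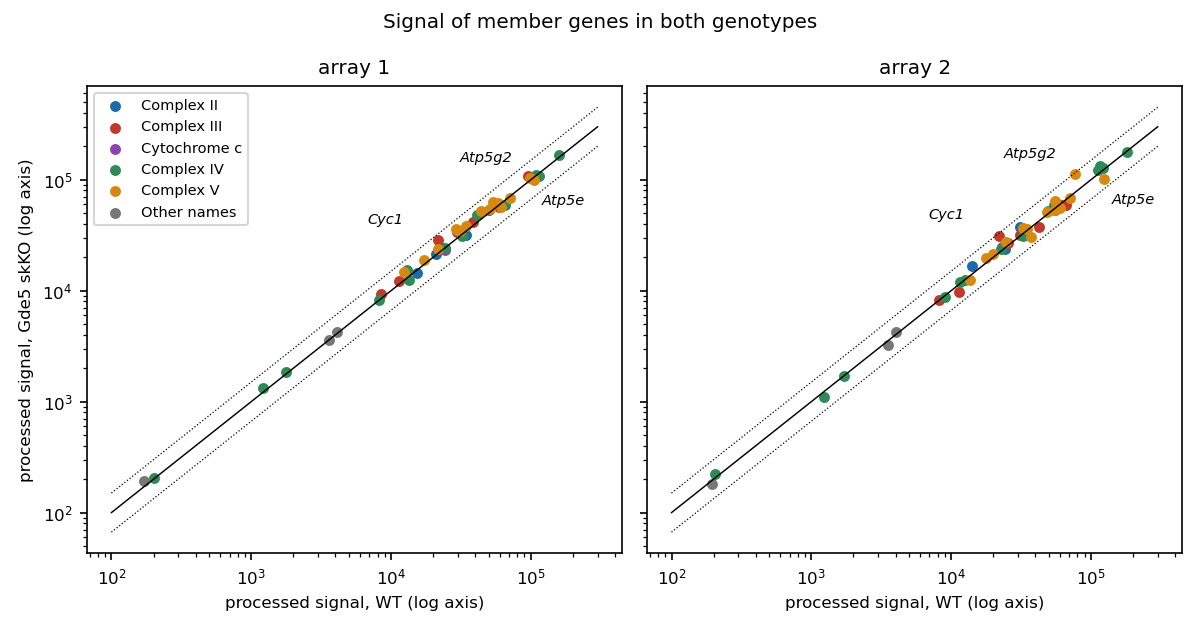
Processed signal of the 45 member genes in WT (x axis) and *Gde5* skKO muscle (y axis) on array 1 (left) and array 2 (right), both axes logarithmic, coloured by complex. The solid line marks equal signal and the dotted lines 1.5-fold; all points lie between the dotted lines on both arrays, with Cyc1 near the upper line and Atp5g2 near it on array 2 alone.

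Outside the complexes, the supercomplex factor Cox7a2l had ratios of 0.03 and 0.08, and Dmac2l had -0.01 and -0.14, a mean of -0.08. Emc8 had 0.16 and -0.12. Its second probe, with ratios of -1.23 and -0.26, was not well above background in *Gde5* skKO muscle on array 1. The members with NRF-1 letters had a median mean ratio of 0.02 and those with a listed promoter but without these letters had 0.04.

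limma's moderated test was the criterion that uses the spread between the arrays. At an unadjusted p under 0.05 it placed 2 of 45 members (4.44%) higher, Cyc1 and Atp5b, against 4.23% of all genes, and 0 lower, against 4.26%. After Benjamini-Hochberg adjustment 0 members were higher, against 0.287% of all genes, and 0 were lower, against 0.5%. In the direction of the dyes, with neither array turned, 5 members (11.1%) passed the unadjusted threshold, Sdhc, Uqcrh, Cox6c, Atp5a1 and Atp5g2, against 4.69% of all genes. Swapping the dyes turns the sign of a genotype difference and keeps that of a dye effect, and after adjustment 0 members passed along the dyes. Over all genes 637 passed the unadjusted threshold along the dyes, counted in both directions together. Along the genotypes the directions were counted apart, with 575 genes higher and a further 579 lower.

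The genes around the complexes were described by lists from general knowledge. Complex I, the first complex of the chain, had 36 measured subunits, of which 0 were called in either direction, and a median mean ratio of 0.05. There 15 of 36 were above 0 on both arrays and 2 below. Of the subunits of complexes III to V under other names, 5 were measured, and 0 were called. These include the mitochondrially encoded COX2 (-0.34 and 0.13) and CYTB (-0.09 and 0.22). Assembly factors of complexes II to V had 29 measured genes, 0 calls and a median of 0.09. Mitochondrial ribosomal proteins had 78 measured genes, a median of 0.08, and 35 above 0 on both arrays against 14 below. Over all genes 29.2% were above 0 on both arrays and 25.3% below. Of these 78, 1 was called higher, Mrps27, with ratios of 0.46 and 0.52, against 1.58% of all genes. At limma's unadjusted threshold 9 of the 78 were higher and 0 lower, against 4.23% and 4.26% of all genes.

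The 10 measured genes of ATP export and inner membrane transport had 0 calls and a median of 0.11, and at limma's unadjusted threshold 2 were higher and 1 was lower, against 4.23% and 4.26% of all genes. Ckmt2, the mitochondrial creatine kinase of muscle, had ratios of 0.39 and 0.17, and Vdac1, the outer membrane channel, had -0.30 and -0.44. Among 15 measured genes of other electron carriers, 1 was called higher, against 1.58% of all genes. This was Coq5, a methyltransferase of ubiquinone synthesis. Its signal was 2790 in WT and 3711 in *Gde5* skKO muscle on array 1 and 2872 and 4202 on array 2, above WT on both, with ratios of 0.41 and 0.55. Coq9 of the same pathway had 0.46 and 0.35 and was not called. Coq10b (-0.32 and -0.35) and Coq2 (-0.22 and -0.15) were below 0 on both arrays. Of the 15 genes, 6 were above 0 on both arrays and 3 below, against 29.2% and 25.3% of all genes. At limma's unadjusted threshold 2 of the 15 were higher and 1 was lower, against 4.23% and 4.26%. Adjusted over all genes, the limma p was 0.317 for Ckmt2, 0.348 for Vdac1 and 0.154 for Coq5.

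Of the regulators of mitochondrial genes 18 were measured, 0 were called, and 11 were above 0 on both arrays against 2 below. Their median mean ratio was 0.10. Ppargc1a, which encodes the coactivator PGC-1alpha, had a signal of 2500 in WT and 3717 in *Gde5* skKO muscle on array 1 and of 2521 and 3105 on array 2, with ratios of 0.57 and 0.30. The muscle regulator Perm1 had 0.25 and 0.63, Ppargc1b had 0.40 and 0.27, and the deacetylase Sirt3 had 0.56 and 0.24. These 4 of the 18 were higher at limma's unadjusted threshold, against 4.23% of all genes, and after adjustment their p-values were between 0.236 and 0.41. Of the factors whose letters were searched, the list held all but MEF2. Mean ratios were 0.00 for Nrf1, whose signals were dim, between 47.2 and 60.4, -0.20 for Gabpa and -0.17 for Yy1. For the estrogen-related receptors they were 0.16 (Esrra), 0.17 (Esrrb) and 0.23 (Esrrg).

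Of 11 slow fibre markers, 3 were called higher, Myl2, Tnni1 and Casq2, against 1.58% of all genes. Among the 11, 9 were above 0 on both arrays, and the median mean ratio was 0.37. By limma the adjusted p = 0.0124 for Myl2, adjusted p = 0.0535 for Tnni1 and adjusted p = 0.10 for Casq2. Atp2a2 (0.44 and -0.12) and Myoz2 (-0.01 and 0.56) changed sign between the arrays. Their summed signal was 191431 in WT and 258559 in *Gde5* skKO muscle on array 1 and 198205 and 262354 on array 2. Of 11 fast fibre markers 0 were called, 3 were above 0 and 7 below 0 on both arrays, and the median was -0.13. White adipocyte markers were called lower for 6 and higher for 1 of 9 measured genes, against 1.73% and 1.58% of all genes. Car3, which muscle also expresses, was the higher one. Of 6 heart muscle markers measured, Myh6 was called higher (0.59 and 0.48), the median was 0.43 (0.05 with limma's ratios), and the summed signal was 2519 in WT and 3623 in *Gde5* skKO muscle on array 1 and 2627 and 3581 on array 2. Nppa of heart was not well above background. Of 4 brown adipocyte markers measured, Cidea was called higher (0.90 and 0.64) and the median was 0.14, with summed signals of 1455 and 2012 on array 1 and 1639 and 1982 on array 2, while Ucp1 and Elovl3 were not well above background. Fewer cells of a type and less RNA per cell cannot be told apart in RNA of whole muscle. The part of fibre, fat and heart markers in the ratios of the respiratory subunits was not tested. The plot of gene lists sets the medians of the slow and fast fibre markers beside those of the complexes, without the fat and heart markers.

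**Figure D4:**
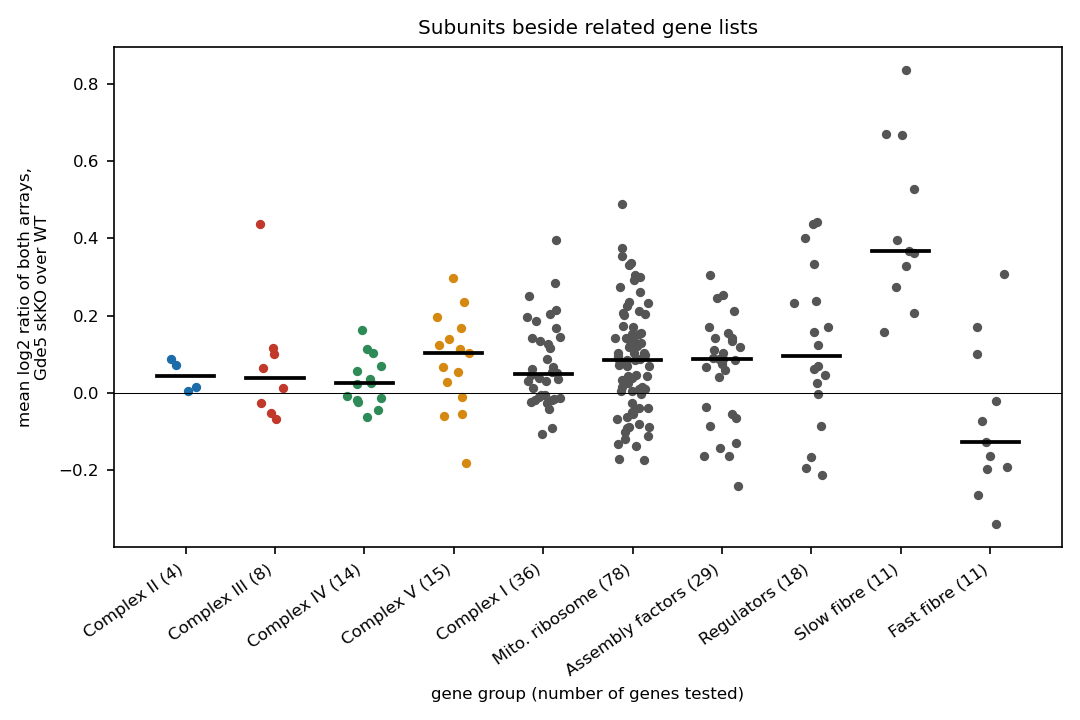
Mean log2 ratio of both arrays (y axis) for each measured gene of complexes II to V and of 6 related lists (x axis, number of genes in brackets), with black bars at the medians. The medians of the complexes lie between 0.02 and 0.10, that of slow fibre markers at 0.37 and that of fast fibre markers at -0.13.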

How the data were processed

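Two-colour Agilent arrays compared WT with *Gde5* skKO GAS muscle. The authors scanned the arrays and ran Feature Extraction (9.5 in the submitters' notes, 9.5.3.1 in the file headers), which subtracted background and normalized the dyes. For every spot the deposited files hold the log10 of Cy5 over Cy3, a p-value from an error model with a proportional error of 0.1 per channel, and both channels' intensity. The error of the log10 ratio, used as a score of spot precision, is also the authors' deposited output. A table of the series holds the same log10 ratios with fewer digits.

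Here all ratios were rescaled to log2 with *Gde5* skKO as the numerator. Control spots and 195 and 221 spots with outlier marks, of 43379, were left out. On array 1, 45.6% of WT and 53.2% of *Gde5* skKO spots were well above background, and on array 2, 47.4% and 44.6%. Probes were named through RefSeq (60 of the 64 member probes by accession). The 95% interval is the mean ± 1.96 SE of the error model. No test across mice was made. limma 3.58.1 (R 4.3.3) fitted normexp (offset 50) and loess ratios. Other steps used matplotlib 3.10.9, scipy 1.17.1, pandas 2.3.3 and numpy 2.4.6 under Python 3.11.15, and the call rule was tested on simulated data.

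Members and lists were chosen with earlier results of these data known. The named genes were every called member, all members of the isoform families Sdha to Sdhd, Cox4i, Cox6a, Cox6b, Cox7a, Cox8 and Atp5g, Cycs and Cyc1, and the 3 highest and 3 lowest mean ratios. Other members are named to account for each, and genes outside the complexes were chosen after their values were seen. Alternatives were other background corrections, the series table, other filters, probes, thresholds and tests, and each array alone.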

Additional observations from a re-analysis of the deposited data

How the results depend on the processing

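The count of 0 called members in either direction held with no filter on dim probes, with the mean over all probes and with probes in place of genes. limma's test after Benjamini-Hochberg adjustment gave 0 as well. Other settings also gave 0 but could not have added a call. These include other ratios, from normexp and loess, from no background correction or from the series table. Under the Feature Extraction p such ratios could add no call, as 0 of 45 members passed it on array 1. A Feature Extraction p under 0.01 and its adjustment are only stricter. No member spot was saturated, and all 45 tested members were well above background in both channels. Leaving out genes saturated on either array, or asking for both channels, thus removed no tested member. The count became 2 higher with limma's unadjusted p under 0.05 (1 on Feature Extraction ratios, a setting added after seeing the data). With the methods' t-test of the channel signals it was 1 higher and 2 lower. That test placed 616 genes higher and 572 lower in all, and 0 and 0 after Benjamini-Hochberg adjustment. In the dye direction 0 members were called, but this too was fixed, as 0 of 45 members passed the Feature Extraction threshold on array 1. Without either array in turn, the members called higher ranged from 0 to 2 and those called lower were 0, with Cyc1 at 0.49 and Atp5g2 at 0.54 past the threshold without array 1. The median of the members was 0.0288 with no filter on dim probes, and without either array in turn it ranged from 0.0299 to 0.0777, that of complex II from -0.01 to 0.11, of complex III with cytochrome c from 0.00121 to 0.127, of complex IV from 0.01 to 0.04 and of complex V from 0.03 to 0.14. The members below 0 on both arrays were 2 with normexp and loess ratios and 2 with no background correction, in place of 5. The cause of these shifts was not tested. Over 207 values of 23 named genes under the alternatives, 14 had another sign than the mean ratio, and 207 were within 1.5-fold. Each ratio sets both genotypes against each other on 1 array, so the values are already paired within arrays. A limma fit without an array leaves no residual degrees of freedom and was not run.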
